A study of Glycine max with 11 samples.

Results

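Stage 8.2 of soybean seed maturation, reached 73 days after flowering, was compared with the stages on either side of it, stage 8.1 at 71 days and stage 8.3 at 74 days. The 3 libraries were chosen by their stage labels out of 11 in the series. The question was which genes differed at stage 8.2 from the stage before and from the stage after, in the same direction, here called transient genes. A transient gene need not have returned to its level of stage 8.1 by stage 8.3. Of 34577 genes tested, 82 were transient. All libraries came from whole seeds of cultivar BRS284 (Glycine max), and each library pooled seeds from many plants of 1 crop. Of the 9 libraries of freshly harvested seeds, stage 7.2 (63 days) and stage 9 (77 days, dry mature seeds) each have a pair, and stages 7.1, 7.3, 8.1, 8.2 and 8.3 have a single library. A further 2 libraries came from seeds of stage 7.2 dried at 30 °C and 40% relative humidity, called enforced drying here. No stage from 8.1 to 8.3 has a replicate.

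Late in maturation a legume seed stops filling, loses its chlorophyll, dries and becomes quiescent. Its embryo accumulates late embryogenesis abundant (LEA) proteins, raffinose sugars and heat shock proteins, which protect cells in the dry state. Plastids keep a small genome of their own, which encodes core subunits of the photosystems, the cytochrome b6f complex, the plastid NADH dehydrogenase, ATP synthase, RNA polymerase and ribosome, while most plastid proteins are encoded in the nucleus. Plant nuclear genomes hold many inserted copies of plastid DNA, so a gene model on a nuclear chromosome can carry plastid sequence.

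The 3 libraries held 13392050 counts at stage 8.1, 19621133 at stage 8.2 and 22707980 at stage 8.3. These totals lay within the range of 12881662 to 60626937 over the series. Of the libraries whose share of mapped reads is given in the sources used here, stage 8.2 had the lowest share. The dried libraries had the next lowest, and none is given for stage 8.3. Whether mapping affected the levels at stage 8.2 was not tested. Levels are counts relative to library size (CPM), with library sizes scaled by the trimmed mean of M values (TMM), and differences are on the log2 scale. The median difference of all genes between stage 8.2 and the mean of its neighbours was 0.02. Among genes with at least 100 counts in the higher library, 5.28% lay at least 2-fold apart between stages 8.2 and 8.1 and 6.63% between stages 8.2 and 8.3. Replicates lay that far apart for 0.456% of genes at fresh stage 7.2, 0.125% at stage 9 and 12.2% after enforced drying. The 2 dried libraries thus stood apart from each other more than stage 8.2 did from its neighbours. Marker lists of embryo and seed coat, taken as sums, had counts in all 3 libraries and are described with the lower genes. Such counts alone cannot check that whole seeds were used.

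Transient genes fell into 2 unlike groups. The 59 that were higher at stage 8.2 were nearly all loci with plastid sequence or loci without any match in Arabidopsis. The 23 that were lower included the heat shock factor HSFA9, a regulator of seed maturation, and 14 of them had no annotation. The higher genes made up 0.171% and the lower genes 0.0665% of all genes tested with edgeR's quasi-likelihood test, at a log2 difference of at least 1 from the mean of the neighbours and a Benjamini-Hochberg adjusted p under 0.05. Each of the 82 also differed by at least 1 from stage 8.1 and from stage 8.3 separately. Since the single libraries have no replicate, their spread was taken from the replicate pairs of fresh stage 7.2, dried stage 7.2 and stage 9, and they are assumed to vary like those pairs.

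The counts depended strongly on which pairs set the spread. With the dried libraries left out, 219 genes (0.636%) were higher and 294 (0.854%) lower in the 9 fresh libraries, among them all 59 and all 23. The estimated biological coefficient of variation was 19.1% over 11 libraries and 8.56% over the fresh ones. Without dried replicate 1 the counts were 215 and 285, and without dried replicate 2 they were 193 and 304. Without either library of fresh stage 7.2 they were 33 and 5, and without either library of stage 9 they were 1 and 0. The gene left in the last case was Glyma.14G158500. It was also the only gene called when the difference from each neighbour had to pass the test on its own. By fold alone, with no test, 96 genes (0.278%) with at least 100 counts at stage 8.2 lay at least 2-fold above both neighbours, and 134 (0.388%) with at least 100 counts at each neighbour lay at least 2-fold below both. Without a minimum of counts these shares were 3.71% and 3.37%.

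The same rule was applied to the other inner stages, which share libraries with the comparison of stage 8.2. Over 11 libraries it called 0 genes at stage 7.3, 0 higher and 1 lower at stage 8.1, and 1 higher and 1 lower at stage 8.3. Over the fresh libraries it called 121 higher and 89 lower at stage 7.3, 11 and 87 at stage 8.1, and 82 and 112 at stage 8.3. Stage 8.2 had the most transient genes in both fits.

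**Figure D1:**
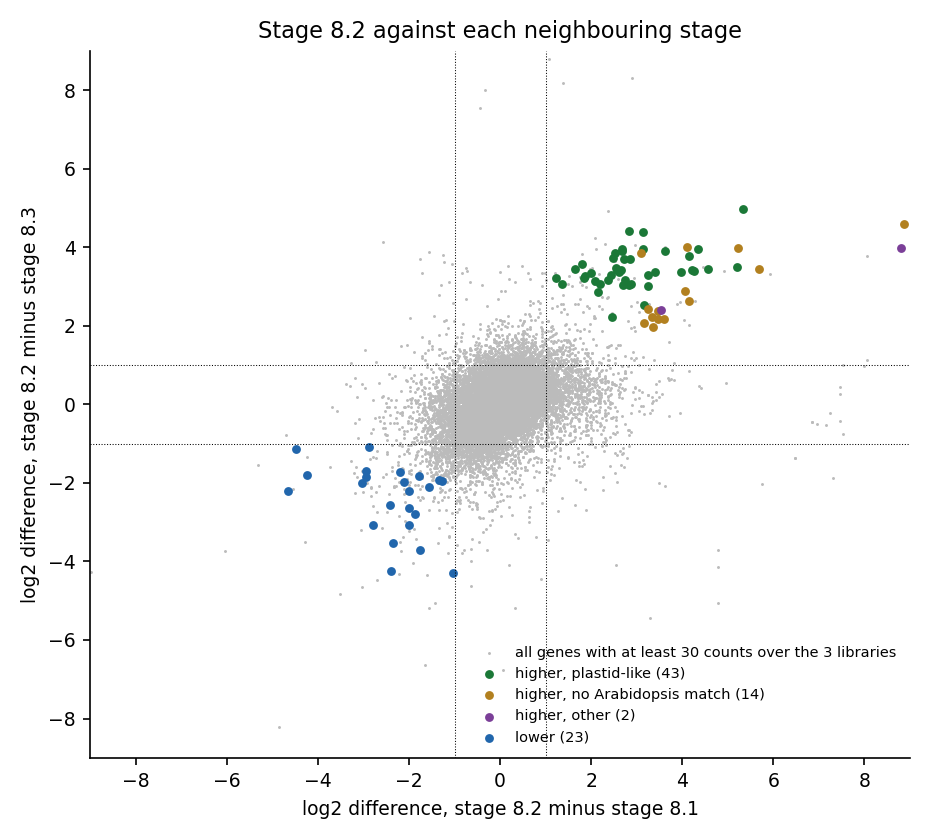
Log2 difference of stage 8.2 from stage 8.1 (horizontal axis) and from stage 8.3 (vertical axis) for 25130 genes with at least 30 counts over the 3 libraries. Grey points are all such genes, coloured points the 82 transient genes, dotted lines a log2 difference of 1, and 3 genes lie outside the axes. The 59 higher genes sit in the upper right corner and the 23 lower genes in the lower left, and positions of genes with at most 3 counts in both neighbours depend on the fit.

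Plastid-like loci made up most of the higher group called over 11 libraries, but not of the larger one called over the fresh libraries. Of the 219 higher genes of the fresh libraries, 90 were plastid-like and 20 had no Arabidopsis match. A further 10 had another Arabidopsis match and 99 were not annotated. Of the 59 higher genes, 43 had their best Arabidopsis match in the plastid genome, 14 had a description but no Arabidopsis match, 1 matched a nuclear Arabidopsis gene and 1 was not annotated in the tables used here. The 43 loci matched 27 different plastid genes and lay on many chromosomes. Several plastid genes were matched by more than 1 locus, with 4 loci for the ribosomal protein L2 gene and 3 each for psbA, psbD, psaA and the RNA polymerase subunit gene rpoC2. Reads of near-identical copies cannot be assigned to 1 locus with certainty, and how alike these loci are was not measured here, so the level of any 1 locus is uncertain and the 43 loci cannot be taken as independent measurements. Whether the reads came from plastid RNA or from nuclear copies was not tested.

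Over all 95 plastid-like loci tested, the summed level was 151 CPM at stage 8.1, 828 CPM at stage 8.2 and 88.5 CPM at stage 8.3. These loci took 0.0973% of all counts at stage 8.2, with a 95% Wilson interval of 0.0960% to 0.0987%, against 0.0165% (0.0158% to 0.0172%) at stage 8.1 and 0.00862% (0.00825% to 0.00901%) at stage 8.3. The intervals cover counting error only, since reads copied by PCR are not independent molecules. Stage 8.2 therefore stood above both neighbours by far more than counting error, but the intervals do not measure spread between libraries. The replicates of fresh stage 7.2 also had separate intervals, of 0.0136% to 0.0144% and 0.00980% to 0.0105%. Earlier stages were at 42.0 CPM (7.1), 120.3 and 94.2 CPM (7.2) and 350.5 CPM (7.3). Mature seeds of stage 9 were at 158 and 155 CPM. The fresh series thus had a smaller maximum at stage 7.3 and its highest value at stage 8.2.

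All 95 loci were above both neighbours at stage 8.2, and 92 were at least 2-fold above both, with a median log2 difference of 2.87. The median is 2.86 with the 5 loci of at most 3 counts in both neighbours set to a floor of 3 counts per library. Of all genes tested, 32.5% were above both neighbours. Over 11 libraries 43 of the 95 were transient and over the fresh libraries 90 were, against 0.171% and 0.636% of all genes tested. The grouping by plastid match was made after the values had been seen, and all 95 loci have their annotation from the study's own list of genes lower at stage 9 than after enforced drying.

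Among photosystem genes, 3 loci carried psbA, the gene of the D1 protein that binds the quinone acceptor of photosystem II. Glyma.13G028200 had 1.10 CPM at stage 8.1, 26.3 CPM at stage 8.2 and 2.39 CPM at stage 8.3. Glyma.11G162200 had 1.37, 26.6 and 2.53 CPM, and Glyma.05G073600 had 0.550, 20.4 and 1.81 CPM. The log2 differences from the mean of the neighbours were 4.01 ± 0.34, 3.83 ± 0.34 and 4.35 ± 0.48 (SE), with edgeR adjusted p of 0.0113, 0.0113 and 0.019. All 3 loci were at or below 1.37 CPM up to stage 8.1 and had returned most of the way by stage 8.3. Glyma.11G114700 matches the gene of CP43, an inner antenna protein of photosystem II, and had 1.03, 9.19 and 0.587 CPM. Glyma.01G058600, with the sequence of cytochrome b6, which passes electrons between the photosystems, had 1.10, 11.6 and 1.13 CPM.

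The large subunit of Rubisco, the carbon-fixing enzyme, is encoded in the plastid, and its small subunit in the nucleus. Glyma.12G061600, with large subunit sequence, had 6.80 CPM at stage 8.1, 48.7 CPM at stage 8.2 and 5.96 CPM at stage 8.3, a log2 difference of 2.93 ± 0.27 (edgeR adjusted p = 0.0113). Glyma.13G097100, annotated as a small subunit, had 16.1, 4.12 and 13.2 CPM. Its difference of -1.82 ± 0.19 passed the test over the fresh libraries (edgeR adjusted p = 3.89e-05) and not over all 11 (0.274). In the fit of the fresh libraries these loci of the 2 subunits moved in opposite directions. Both were named after their values had been seen.

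The plastid NADH dehydrogenase, which cycles electrons around photosystem I, gave Glyma.13G068600 (subunit 3) with 0.824, 17.0 and 1.08 CPM and Glyma.08G050600 (subunit K) with 0.412, 6.59 and 0.632 CPM at stages 8.1, 8.2 and 8.3. Their log2 differences were 4.16 ± 0.39 and 3.68 ± 0.48 (edgeR adjusted p = 0.0113 and 0.0337). Of the genes of the plastid ribosome, Glyma.20G187300 (protein L2) had 2.13, 20.4 and 2.08 CPM and Glyma.U009000 (protein L23) had 0.962, 8.54 and 0.407 CPM. Glyma.20G045200, with the sequence of ycf2, a large and essential plastid gene, had 0.412, 7.80 and 0.723 CPM. Glyma.12G232000, with the sequence of the ATP synthase alpha subunit, behaved less sharply, with 14.6, 52.7 and 5.47 CPM, since it had already reached 40.9 CPM at stage 7.3, and it was named after its values had been seen. Glyma.14G132100, with the sequence of the plastid splicing factor maturase K, had 1 count at stage 8.1, 69 at stage 8.2 and 2 at stage 8.3, so no fold is given.

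Gene lists that mix plastid-like and other loci divided along this line. In the photosynthesis list, all 32 members with a plastid match were at least 2-fold above both neighbours, with a median log2 difference of 3.05. Of the other 13 members tested, 1 was at least 2-fold above both, 3 were at least 2-fold below both, and the median was -0.20. In the list of mitochondrial respiration, where the name pattern also caught plastid NADH dehydrogenase genes, the 9 with a plastid match had a median of 3.19. The other 8 had a median of -0.25, and 0 of them were called over 11 libraries, against 0.171% higher and 0.0665% lower of all genes. For ribosomal proteins of the list meant for the cytosol, the 3 with a plastid match had a median of 2.85 and the other 14 one of 0.19. In the list of plastid complexes, the 54 members with a plastid match had a median of 2.71 and the other 11 one of 0.01. The lists were chosen with earlier results of these data known, and the medians are descriptions.

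The 14 higher genes with no Arabidopsis match shared the peak. Their summed level was 329.7 CPM at stage 8.1, 3653.5 CPM at stage 8.2 and 762 CPM at stage 8.3, and it was 1979.6 and 1589 CPM at stage 9. Most of the stage 8.2 level was thus lost by stage 8.3, and the sum was higher again in mature seeds. Glyma.14G158500, which has no description, had 3.78, 141 and 8.85 CPM at stages 8.1, 8.2 and 8.3, from 55, 3245 and 196 counts. Its log2 difference of 4.60 ± 0.21 had the lowest adjusted p of all genes (edgeR, 0.000768).

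A pair of these genes carry names of chloroplast reading frames of unknown function. Glyma.12G090600, described as chloroplast RF68, had 1.31, 22.6 and 1.40 CPM, a log2 difference of 4.06 ± 0.26 (edgeR adjusted p = 0.00615). Glyma.15G274900, described as Ycf68, had 3 counts at stage 8.1, 250 at stage 8.2 and 22 at stage 8.3. These 2 genes show that loci without an Arabidopsis match can carry plastid names too.

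Further members of the group were named after their values had been seen. Glyma.08G269900, described as a retrotransposon protein, had 116, 1279 and 284 CPM at stages 8.1, 8.2 and 8.3. Glyma.05G084600, described as a glucose-6-phosphate isomerase, had 39.4, 433 and 82.9 CPM, and Glyma.09G133900, described as a cell wall-associated hydrolase, had 26.2, 271 and 69.1 CPM. These descriptions come without an Arabidopsis match and were not checked here. Glyma.19G247400, described as the histone methyltransferase SUVR4, was the only higher gene that matched a nuclear Arabidopsis gene, with 9.14, 105 and 19.9 CPM. Glyma.08G229200 (0, 53 and 2 counts) and the gene without annotation, Glyma.02G229000 (0, 51 and 3 counts), had at most 3 counts at both neighbours, and no fold is given for them.

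**Figure D2:**
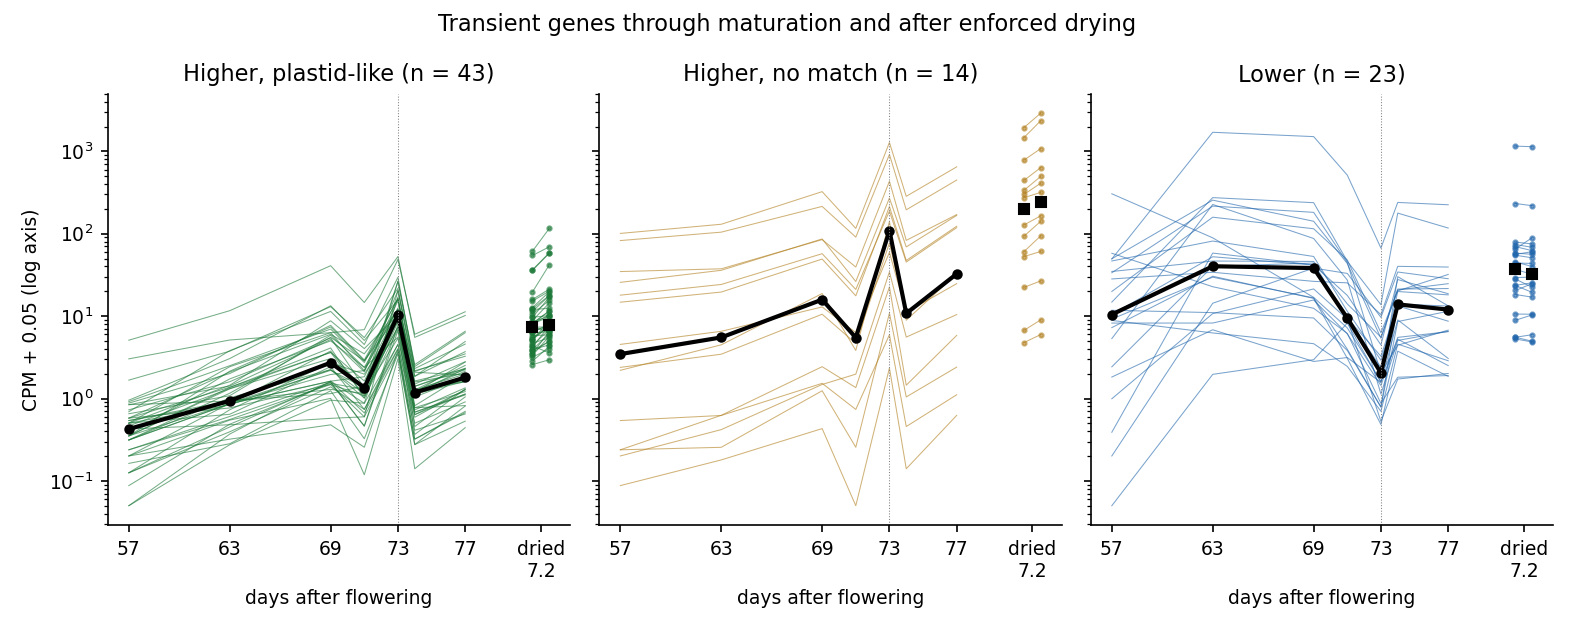
Level in CPM plus 0.05 (log axis) against days after flowering for the 43 higher plastid-like loci, the 14 higher genes without an Arabidopsis match and the 23 lower genes. Thin lines are genes, with replicates averaged, black lines and circles their medians, and the points at the right are dried libraries 1 and 2 of stage 7.2 with the medians as squares. A narrow peak at 73 days appears in both higher groups and a trough in the lower group, and the dried seeds lie near or above the peak in the higher groups.

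Enforced drying of immature seeds raised the higher genes as well. All 59 were called higher in dried than in fresh seeds of stage 7.2, with a median log2 difference of 3.58 and a range of 1.65 to 7.70. Of 30132 genes tested in that comparison, 15.0% were called higher and 17.9% lower. It uses libraries that do not enter the difference at stage 8.2, although the dried pair helps to set the spread. Of the 59 genes, 58 are in the study's list of genes lower at stage 9 than after drying, which was chosen on the dried libraries.

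Glyma.13G028200 (psbA) had 36.4 and 58.7 CPM in dried seeds against 0.711 and 1.05 CPM in fresh seeds of stage 7.2. Glyma.14G158500 had 274 and 317 CPM against 4.68 and 4.18 CPM. For both genes the dried and fresh libraries did not overlap. Each side is only a pair of libraries, and the share of all genes that separate in this way was not computed. Both genes are also on the list that was chosen on the dried libraries. The summed level of the 95 plastid-like loci was 664 and 1088 CPM after drying, on either side of the 828 CPM of stage 8.2. The sum of the 14 genes without a match was 5915 and 8703 CPM, above stage 8.2, and each of the 14 was higher in both dried libraries than at stage 8.2. Among the 43 plastid-like loci, 24 were higher at stage 8.2 than in both dried libraries and 8 were lower than in both. The shares of all genes in these orders were not computed, so no difference between the groups is read from these counts.

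Between fresh stage 7.2 and stage 9, 29 of the 58 higher genes tested were called higher and 0 lower, against 17.8% higher and 27.1% lower of 29707 genes. The share differed within the group, with 13 of the 14 genes without a match and 15 of the 43 plastid-like loci called higher. The genes without a match thus mostly ended maturation above their stage 7.2 level, and 28 of the plastid-like loci were not called. All 59 were higher at stage 8.2 than in both libraries of stage 9, which choosing genes for a high value at stage 8.2 favours.

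**Figure D3:**
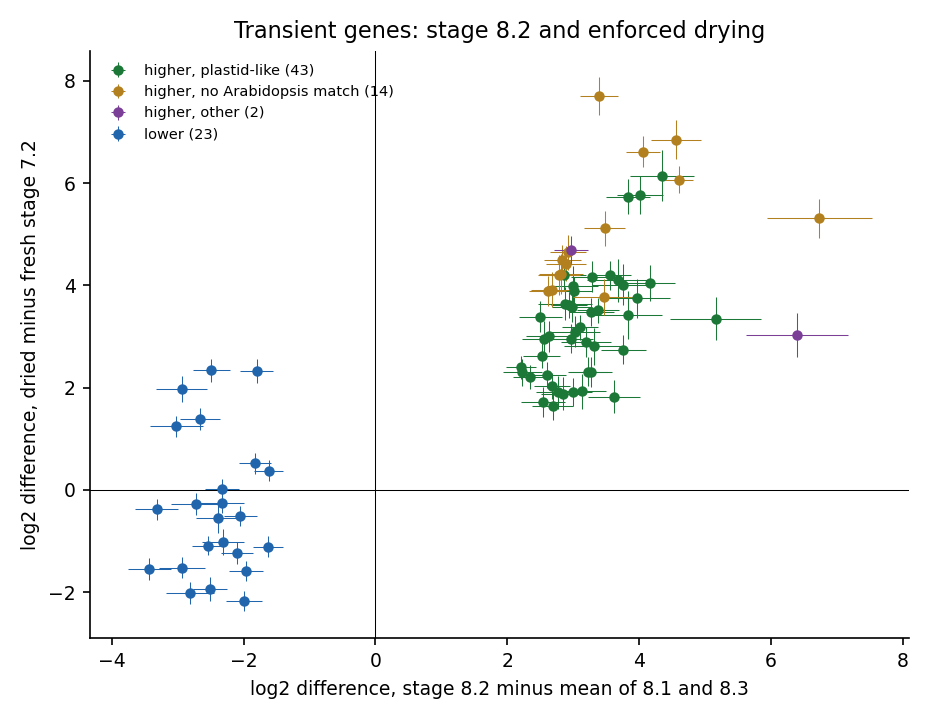
Log2 difference between dried and fresh seeds of stage 7.2 (vertical axis) against that between stage 8.2 and the mean of its neighbours (horizontal axis) for the 82 transient genes. Bars are standard errors from the edgeR fits. All 59 higher genes lie above 0 on the vertical axis, and the 23 lower genes lie on both sides of it.

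The 23 lower genes had a summed level of 897 CPM at stage 8.1, 143 CPM at stage 8.2 and 722 CPM at stage 8.3. Their sum was 3109 and 3643 CPM at fresh stage 7.2 and 524 and 708 CPM at stage 9. The trough of the sum at stage 8.2 thus sat on a decline through maturation. HSFA9 alone held 1551 and 1853 CPM of the sum at stage 7.2. Of the 23 genes, 16 were called lower at stage 9 than at fresh stage 7.2. Some did not decline, such as Glyma.09G250000, with a log2 difference of 0.98 between those stages. All 23 lay below stages 8.1 and 8.3 by the rule. Stage 8.2 also lay below stage 7.3 and both libraries of stage 9 for all 23, and for 18 it was the lowest of the 11 libraries. Choosing genes for a low value at stage 8.2 favours both, and the shares over all genes were not computed. The median log2 difference was -2.39, and the values ran from -3.43 to -1.62. Only 9 of the 23 are annotated in the tables used here.

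HSFA9 (Glyma.17G053700) is a heat shock factor that in sunflower and Arabidopsis is active in seeds, where it turns on genes of heat shock proteins during maturation. It had 514 CPM at stage 8.1, 66.9 CPM at stage 8.2 and 240 CPM at stage 8.3, after 1551 and 1853 CPM at stage 7.2 and 1508 CPM at stage 7.3. It was at 181 and 268 CPM in mature seeds. The log2 difference was -2.39 ± 0.33 (edgeR adjusted p = 0.0428). The value at stage 8.2 lay below every other library but that of stage 7.1, which had 49.3 CPM. HSFA9 did not pass the threshold of adjusted p in 7 of 14 alternative settings.

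A further 3 annotated factors were lower. Glyma.01G190100 (MYB112, with the MYB73 gene as its Arabidopsis match) had 43.4, 5.33 and 21.2 CPM at stages 8.1, 8.2 and 8.3, a log2 difference of -2.51 ± 0.25 (edgeR adjusted p = 0.0133). Glyma.13G133000, a zinc finger factor, had 9.14, 0.477 and 1.67 CPM, so that stage 8.2 rested on 11 counts and the level after it stayed low. Glyma.12G042800, a bHLH factor that matches the Arabidopsis cryptochrome partner CIB1, had 3.09, 1.52 and 30.0 CPM. Its profile was mainly a step up at stage 8.3, with log2 differences of -1.02 from stage 8.1 and -4.30 from stage 8.3. Of 533 factors tested from the study's list of transcription factors, 0 were called higher and 2 lower, the zinc finger and bHLH genes. The shares of all genes were 0.171% and 0.0665%. Over the fresh libraries 1 of 533 was transient and higher and 7 were lower, against 0.636% and 0.854% of all genes.

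Other annotated genes were as high at stage 8.3 as before, or higher. Glyma.09G250000, an E3 ubiquitin ligase of the MARCH type, which marks proteins for removal, had 32.9, 9.62 and 34.2 CPM. Glyma.06G220800, a blue copper protein, had 8.18, 1.52 and 8.95 CPM. Their log2 differences were -1.80 ± 0.25 and -2.49 ± 0.28 (edgeR adjusted p = 0.0432 and 0.0194). For both genes the levels of stages 8.1 and 8.3 were close to each other. Glyma.17G187300, called a 2-aminoethanethiol dioxygenase and matching an Arabidopsis cysteine oxidase of the oxygen sensing pathway, had 3.78, 0.737 and 8.54 CPM and was named after its values had been seen. Glyma.13G131400, a retinol dehydrogenase by name, had 9.41, 3.21 and 13.8 CPM, and Glyma.02G030800, of unknown function, had 17.8, 4.42 and 27.7 CPM.

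Among the 14 lower genes without annotation, Glyma.18G127200 had the largest difference, with 27.3, 1.08 and 5.01 CPM and a log2 difference of -3.43 ± 0.33 (edgeR adjusted p = 0.0113). It had 210 and 243 CPM at stage 7.2, and it did not return to the level of stage 8.1. Glyma.19G027400 had 9.41, 2.34 and 19.8 CPM and Glyma.02G124000 had 11.4, 2.86 and 13.2 CPM. In these 2 genes the level of stage 8.3 was above that of stage 8.1.

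**Figure D4:**
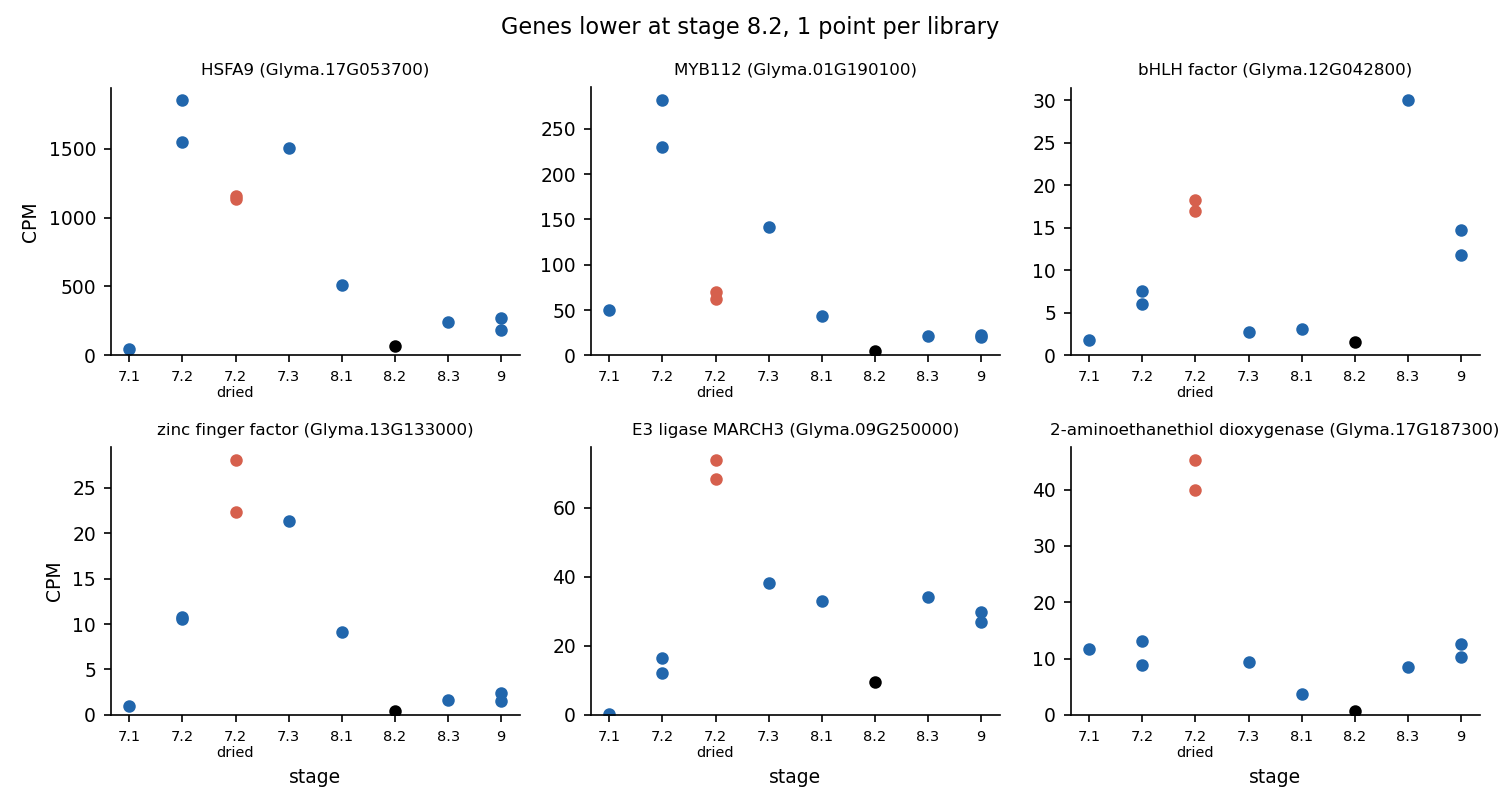
Level in CPM (vertical axes start at 0) by stage for 6 annotated genes that were lower at stage 8.2, with 1 point per library, stage 8.2 in black and dried seeds of stage 7.2 in red. HSFA9 and MYB112 declined from stage 7.2 and dipped at stage 8.2, the E3 ligase returned to about 34.2 CPM at stage 8.3, and the bHLH factor was highest at stage 8.3.

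Enforced drying did not move the lower genes in 1 direction. Of the 23, 5 were called higher and 10 lower after drying, against 15.0% and 17.9% of all genes tested, with a median log2 difference of -0.51. The 5 were all annotated, among them the E3 ligase Glyma.09G250000, with 73.8 and 68.3 CPM in dried against 12.2 and 16.4 CPM in fresh seeds, and the blue copper protein Glyma.06G220800, with 8.86 and 10.3 CPM against 1.99 and 1.84 CPM. HSFA9 had 1156 and 1137 CPM in dried seeds against 1551 and 1853 CPM in fresh seeds and was not called (edgeR adjusted p = 0.16). Both dried libraries lay above stage 8.2 for all 23 genes, which choosing genes for a low value at stage 8.2 favours. Between fresh stage 7.2 and stage 9, 16 of the 23 were called lower and 0 higher, against 27.1% and 17.8% of all genes tested.

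Genes of seed protection and storage were not called over all libraries, and many of those listed lay below both neighbours. Over 11 libraries 0 of 18 LEA and seed maturation proteins and 0 of 25 storage and oil body proteins were called. Of 5 genes of raffinose sugar synthesis, 0 were called. Beside shares of 0.171% higher and 0.0665% lower of all genes, these counts of 0 say little. In the same order of lists, 10, 15 and 5 members were below both neighbours, against 28.1% of all genes tested. The medians were -0.83, -0.54 and -0.73. By the transient rule over the fresh libraries, 4 of the LEA proteins, 1 storage protein and 0 of the sugar genes were lower, against 0.854% of all genes. These lists take most of their members from the study's comparison of stage 9 with dried seeds, so they do not stand for all genes of their kind.

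The sums over these lists dipped at stage 8.2. The 18 LEA and seed maturation genes summed to 8936 CPM at stage 8.1, 4515 CPM at stage 8.2 and 8970.4 CPM at stage 8.3. The 5 raffinose sugar genes summed to 2927, 1318 and 2511 CPM, and the 25 storage genes to 949, 652 and 1433 CPM. Glyma.12G001600, a LEA protein, had 1180.5, 402 and 1158 CPM, and Glyma.08G239400, of the same family, had 686, 190.2 and 462 CPM. Their differences over the fresh libraries were -1.54 ± 0.17 and -1.57 ± 0.17 (edgeR adjusted p = 8.84e-05 and 5.13e-05), and over all 11 libraries the adjusted p was 0.108 and 0.0864. Glyma.19G189400, the 35 kDa seed maturation protein, had 157, 69.4 and 176 CPM, and Glyma.07G064700, a Lea14 homologue, had 106, 47.5 and 102 CPM. All 4 were named after their values had been seen.

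Seed coat genes were not called over 11 libraries either, which says little beside shares of 0.171% higher and 0.0665% lower of all genes. The 16 seed coat markers tested summed to 82.6 CPM at stage 8.1, 63.2 CPM at stage 8.2 and 108 CPM at stage 8.3, and to 104 and 113 CPM at stage 9. Of the 16, 8 were below both neighbours and 4 above both, against 28.1% and 32.5% of all genes, and 4 were transient and lower over the fresh libraries, against 0.854%. Glyma.01G228700 (chalcone synthase 7, which starts flavonoid synthesis) had 33.2, 16.6 and 36.5 CPM. Most of the fall of the sum from stage 8.1 to stage 8.2 came from this 1 gene. The part of a different share of seed coat in the sample was not tested, and in whole seeds fewer cells of a type and less RNA per cell cannot be told apart.

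Sugar transport and starch genes were among the lower transient genes of the fresh libraries, with 5 of 25 lower and 0 higher, against 0.854% and 0.636% of all genes. Glyma.14G120300 and Glyma.13G037900, which encode sugar transporters of the SWEET1 type, had 86.4, 27.6 and 66.0 CPM and 8.79, 2.60 and 7.36 CPM. Ferritin-4 (Glyma.14G056800), which stores iron in plastids, had 143, 63.4 and 165 CPM. In the ubiquitin and proteasome list, 7 of 104 were transient and lower over the fresh libraries, against the same 0.854%. Of this list 91 of 108 members, and of the sugar list 23 of 26, come from the study's comparison of stage 9 with dried seeds. Neither list stands for all genes of its kind. A second E3 ligase of the MARCH type, Glyma.18G242400, had 39.2, 17.7 and 43.6 CPM, with the same order of levels as Glyma.09G250000 and a log2 difference of -1.22 ± 0.15 (edgeR adjusted p = 0.000157 over the fresh libraries).

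Of 29 small heat shock proteins, 0 were transient in either fit, 1 was above both neighbours and 6 below both, with a median of 0.15. At the shares of all genes, 0.171% higher and 0.0665% lower over 11 libraries and 0.636% and 0.854% over the fresh ones, fewer than 1 of 29 would be transient, so the count of 0 says little about this list. Of 34 other chaperones tested, 0 were transient over 11 libraries and 2 were lower over the fresh ones, and 3 lay at least 2-fold below both neighbours. Glyma.14G099900, a class II small heat shock protein, went from 0.756 CPM at stage 8.1 to 9.40 CPM at stage 8.2 and 40.0 CPM at stage 8.3, and reached 101 and 104 CPM at stage 9. Its difference from the mean of the neighbours was 0.77, with an edgeR adjusted p of 0.422 over 11 libraries and 0.0331 over the fresh ones. Glyma.08G318900 had 1.03, 3.68 and 10.6 CPM. Their levels climbed through stage 8.2, and a stage between its neighbours is not transient by the rule. HSFA6b (Glyma.03G157300) had 6.94, 8.41 and 10.6 CPM and HSFA3 (Glyma.03G191100) had 9.21, 15.2 and 14.8 CPM, both without a call. Of 17 histones, 14 were above both neighbours, against 32.5% of all genes, and 2 lay at least 2-fold below both, with a median of 0.35. All 17, and 27 of the 29 small heat shock proteins, come from the study's comparison of stage 9 with dried seeds. They do not stand for all genes of their kind. Over 11 libraries 0 histones were transient, and over the fresh libraries 1 was lower, Glyma.11G191600 with 4.40, 0.780 and 1.90 CPM, named after its values had been seen.

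Other genes that the study names were not called over 11 libraries. Raffinose synthase (Glyma.06G179200, which makes the trisaccharide from galactinol and sucrose) had 689, 412 and 1098 CPM at stages 8.1, 8.2 and 8.3 (log2 difference -1.08, edgeR adjusted p = 0.245). It passed the test against the mean of the neighbours over the fresh libraries, at -1.08 ± 0.16 (edgeR adjusted p = 0.000736), and with DESeq2 (adjusted p = 0.00506), but its log2 difference from stage 8.1 was -0.74 and so it was not transient. Galactinol synthase Glyma.20G094500 had 56.5, 32.5 and 33.8 CPM, and Glyma.03G229800 had a log2 difference of -0.67 (edgeR adjusted p = 0.357). Over the fresh libraries their edgeR adjusted p was 0.0366 and 0.0139, at differences smaller than the threshold of 1. SOMNUS (Glyma.12G205700), a zinc finger protein that in Arabidopsis restrains light-dependent germination, had 502, 102 and 107 CPM, a step down at stage 8.2 that stayed low. It passed the test over the fresh libraries, at -1.19 ± 0.14 (edgeR adjusted p = 0.000152), and not over all 11 (0.150), as did the zinc finger gene IDD1 (Glyma.02G058500), at -1.46 ± 0.28 (0.00526, and 0.308 over all 11). NFXL1 (Glyma.09G173000) had 53.6, 56.2 and 56.9 CPM. The reference gene Glyma.06G078500, a proteasome subunit, had 37.8, 39.6 and 39.1 CPM, and Glyma.15G271300, a ribosomal protein, had 150, 117 and 155 CPM.

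**Figure D5:**
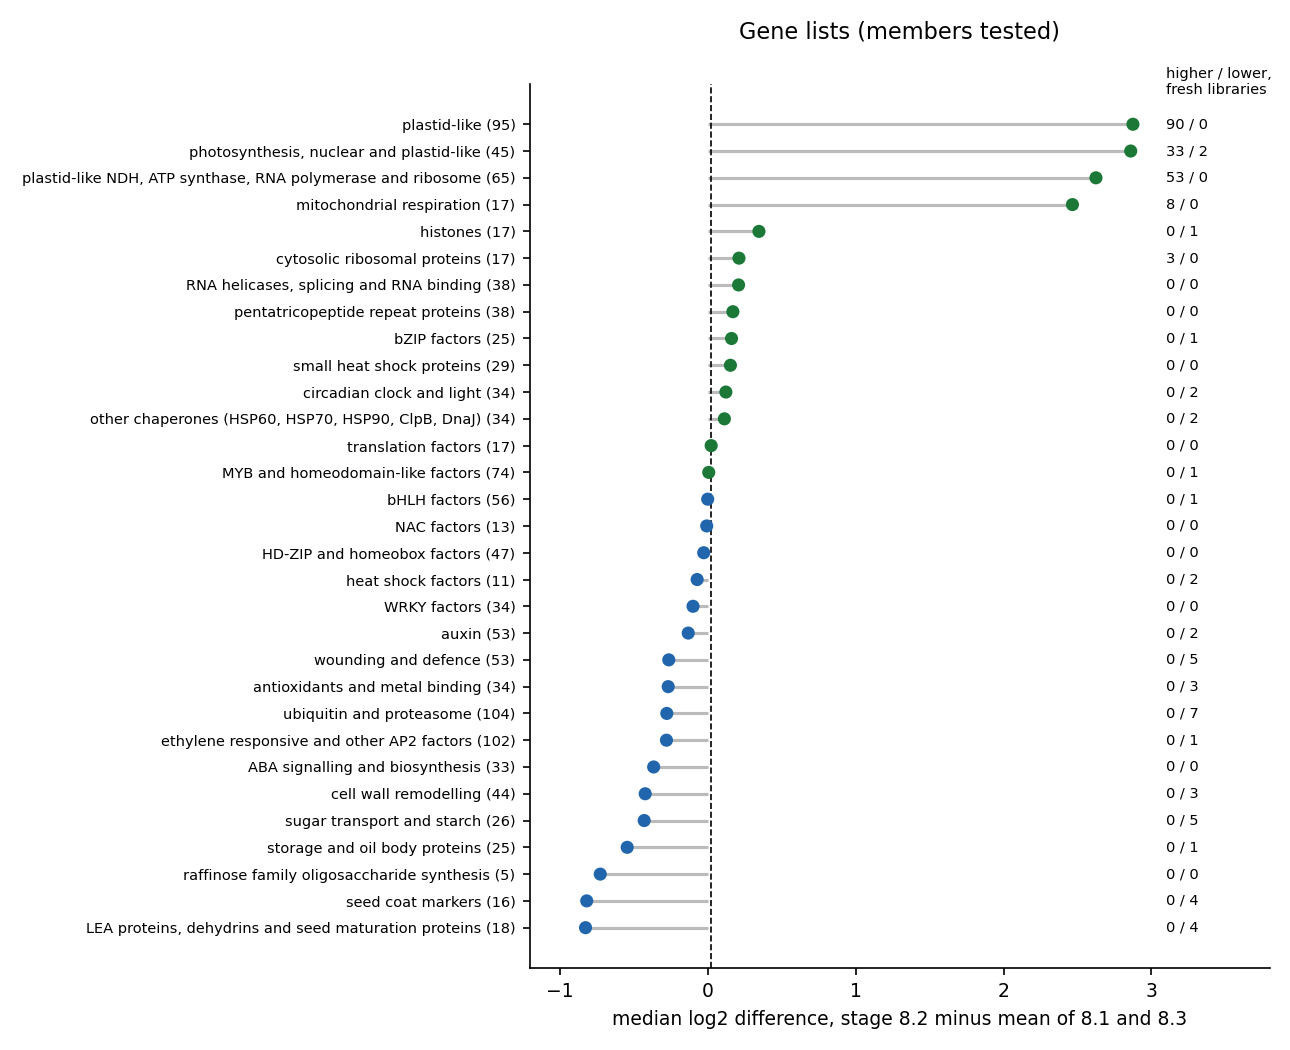
Median log2 difference between stage 8.2 and the mean of its neighbours over 11 libraries for each gene list, with the number of members tested in brackets and the numbers transient and higher or lower over the fresh libraries at the right. The dashed line is the median of all genes, 0.02. The plastid-like list (2.87) and the lists of photosynthesis, plastid complexes and mitochondrial respiration, which hold many of its members, lie far to the right, and the LEA list (-0.83) and the seed coat list (-0.82) lie at the left end.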

How the data were processed

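Whole soybean seeds were sequenced in 11 libraries. Per the labels and the methods of the study, libraries were made with the TruSeq RNA kit and reads mapped with Bowtie2 to the Williams 82 genome. The authors deposited unnormalized counts, whole numbers for 56044 genes. The counting program and the treatment of reads shared by copies are not given in the sources used here, nor is it stated whether the plastid genome was part of the reference. The row without a gene name held 0 counts.

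Counts were analysed with R 4.3.3, edgeR 4.0.16 (on limma 3.58.1) and, as an alternative, DESeq2 1.42.0. All 11 libraries entered 1 fit of 8 groups, with TMM scaling, filterByExpr, and two-sided quasi-likelihood tests with 3 residual and 4.94 prior degrees of freedom. Stage 8.2 was contrasted with the mean of stages 8.1 and 8.3. A gene was called at an absolute log2 difference of at least 1 and an adjusted p under 0.05, and was transient if it also differed by at least 1 from each neighbour. Drying and stage 9 were each compared with fresh stage 7.2 in their own 4 libraries. The scripts were tested on simulated data. Intervals of shares are Wilson intervals computed with Python 3.11.15 and scipy 1.17.1, at 95% confidence.

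Names and Arabidopsis matches of 3243 genes came from the study's supplementary tables, some of which were used here only in part. The identifiers matched 0 entries of the reference table of gene names, so sequences and promoters were not used here. Named genes were, among transient genes with at least 100 counts at stage 8.2 (higher) or in both neighbours (lower), ordered by the smaller difference from a neighbour, the first 5 and the first 12 with a name in each direction, transient factors of the study's list of transcription factors, up to 4 transient genes of each gene list, and genes the study names. Others are marked as named after their values were seen, as are the lower genes of the fresh libraries that follow the same order within a list. The samples, gene lists and rules were chosen with earlier results of these data known. Alternatives covered the normalization, the filter, the thresholds, the libraries, the weight of the neighbours, the tool, a replicate block and each replicate left out. The fit of other inner stages and the list counts in fresh libraries were added after the data were seen.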

Additional observations from a re-analysis of the deposited data

How the results depend on the processing

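Stages 8.1, 8.2 and 8.3 have 1 library each, so the calls rest on the spread of other stages and single genes at these stages have no replicate check. Depth limits genes with few counts at stage 8.1, the shallowest of the 3 libraries.

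The 59 higher and 23 lower genes became 2 and 0 at an adjusted p under 0.01, 20 and 4 with at least 10 counts required in every library, and 203 and 431 without a filter (157 and 236 by the transient rule). The fit without a filter had 51.5 prior degrees of freedom, against 4.94. The 9 fresh libraries gave 344 higher and 585 lower genes (219 and 294 transient). DESeq2 gave 227 lower genes, 141 of them transient, and 86 higher. At an unadjusted p under 0.05 edgeR had 3467 genes in both directions. Against stage 8.1 alone 47 genes were lower and against stage 8.3 alone 76. With both single differences tested, 1 higher and 0 lower genes were left. Leaving out 1 replicate at a time gave 1 to 335 higher and 0 to 595 lower genes against the mean, and 1 to 215 and 0 to 304 transient genes. Other settings kept the counts within 1.5 times. The cause of these shifts was not tested beyond the coefficients of variation given above.

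No paired analysis was possible because the groups of the main comparison have 1 library each. For drying and stage 9 a replicate block left all counts of transient genes as they were (59 higher with drying, 29 higher at stage 9, 5 and 10 of the lower genes with drying, 16 at stage 9). Same-numbered libraries share only a number, with correlations of their deviations of 0.0489 and 0.0578. Leaving out 1 replicate gave 58 to 59 higher genes called higher with drying, 3 to 5 lower genes called higher and 6 to 10 called lower. Of the lower genes, 0 to 2 were called higher at stage 9 with a replicate left out, 1 with DESeq2 size factors and 2 with DESeq2.

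Among named genes the direction reversed only for genes that were not called. Against stage 8.1 alone HSFA6b (Glyma.03G157300) was at 0.28 and ERF110 (Glyma.06G148400) at 0.29. Against stage 8.3 alone Glyma.13G310100 (a WRKY factor) was at 0.24, Glyma.09G173000 (NFXL1) at -0.016, and 4 small heat shock proteins at -1.53 (Glyma.08G318900), -2.09 (Glyma.14G099900), -1.42 (Glyma.14G100000) and -3.71 (Glyma.17G224900). With neighbours weighted by day these 4 were at -0.41, -0.18, -0.34 and -0.88, and with DESeq2 Glyma.17G224900 was at -0.22. Glyma.09G173000 ran from -0.0068 to 0.028 with a replicate left out.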

Other observations

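Some genes with low values at stage 8.2 and a high value at stage 8.3 were outside the rule for named genes. They were picked by hand after their values had been seen, from the 294 lower genes of the fresh libraries. They were transient and lower over the fresh libraries and not over all 11. Alcohol dehydrogenase (Glyma.04G240800), which in many plants is induced when oxygen is short, had 16.6 CPM at stage 8.1, 7.32 CPM at stage 8.2 and 46.9 CPM at stage 8.3. A nonsymbiotic haemoglobin (Glyma.11G121800), of a class that binds oxygen tightly and scavenges nitric oxide, had 7.83, 2.08 and 34.1 CPM. A glyceraldehyde 3-phosphate dehydrogenase (Glyma.18G009700), an enzyme of glycolysis, had 8.38, 3.12 and 104 CPM. All 3 lay further below stage 8.3 than below stage 8.1. In the edgeR fit of fresh libraries their log2 differences were -1.93 ± 0.26, -2.97 ± 0.51 and -3.24 ± 0.48, with adjusted p of 0.000384, 0.00247 and 0.000776. Over 11 libraries the edgeR adjusted p was 0.179, 0.116 and 0.0808. Transporters of other kinds had the same order of levels and the same calls. Glyma.05G229700, an oligopeptide transporter by name, had 19.4, 4.25 and 48.2 CPM. Glyma.16G157100, a sucrose transporter by name, had 3.02, 1.39 and 14.4 CPM. Whether these genes share a process was not tested.

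Both genes of the seed maturation protein PGmPM3 dipped on a decline like that of HSFA9. Glyma.20G184600 had 227, 27.7 and 89.7 CPM at stages 8.1, 8.2 and 8.3, after 1232 and 1483 CPM at stage 7.2. Glyma.10G205900 had 1715, 471.5 and 956 CPM. In the edgeR fit of fresh libraries the adjusted p was 4.06e-05 and 0.000413, and over 11 libraries it was 0.0808 and 0.288.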
